A study of Homo sapiens with 6 samples.

Results

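The genes described here encode the proteasome. They were chosen by name from the gene count table: protein-coding genes whose symbol is PSM, then a letter from A to G, then a number, which leaves out PSMC3IP. Of the 58735 genes in the table, 19951 were protein-coding and 48 met the rule. By role they comprised 8 alpha subunits of the core (PSMA genes), 8 beta subunits of the core outside the immunoproteasome, 3 immunoproteasome subunits (PSMB8, PSMB9 and PSMB10), 6 cap ATPases (PSMC genes), 11 cap subunits without ATPase activity (PSMD genes), 4 activators (PSME genes) and 8 genes for a regulator and assembly chaperones. Enough reads were counted in 46 of them for a test. PSMA8 and PSMB11, known as the testis form and the thymus form of core subunits, had 0 counts in each of the 6 libraries. With a limit of 3 counts per library for a gene at 0, a level of up to 0.198 on the counts-per-million scale (CPM) is allowed in the shallowest library, counting error only.

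The proteasome is the protease complex that degrades proteins tagged with ubiquitin. Its barrel-shaped 20S core is built of alpha rings, which gate entry, around beta rings, which hold the catalytic sites of PSMB5, PSMB6 and PSMB7. Interferon gamma induces PSMB8, PSMB9 and PSMB10, which take the places of those subunits in newly made cores and change the peptides offered on class I molecules. The 19S cap binds, unfolds and threads the substrate, and other caps such as PA28, made of PSME1 and PSME2, open the core without ubiquitin. When proteasome activity falls, the transcription factor NRF1 (gene NFE2L1) raises proteasome subunit genes together.

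RNA was sequenced from NCI-N87, an established human gastric cancer cell line known for amplified ERBB2, in 6 libraries. In the 3 control libraries the cells carried the empty vector PLVX-IRES-Puro, and in the 3 EGLN3 libraries the same vector with EGLN3, a prolyl hydroxylase also called PHD3. All 6 shared the cell line, the vector backbone, which carries puromycin resistance, and 7 days of puromycin selection. The plasmid step is given as 1 day for 5 libraries and as 5 days for EGLN3 replicate 3. The labels do not name the promoter that drives EGLN3, nor whether cells were pooled or cloned, nor that replicates were separate cultures. The p-values therefore reflect only how far these libraries spread, and that spread may be technical. The study's title concerns EGLN3 and proliferation, and the comparison below asks what the vector did to proteasome transcripts.

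The libraries held 15157265 to 16767383 gene counts. The vectors' labels held for EGLN3 itself: the controls had 10, 11 and 9 EGLN3 counts, and the EGLN3 libraries 7298, 27674 and 27494, in replicate order. In edgeR's quasi-likelihood test this was a log2 fold change of 11 with SE 0.72 and an adjusted p = 0.031. Leaving out EGLN3 replicate 1 kept that call, and leaving out any other library ended it, with adjusted p from 0.065 to 0.67. EGLN3 replicate 1 stood apart: it carried the least EGLN3 RNA of its group and lay at the end of the main axis of variation, far from the other EGLN3 libraries. The epithelial genes EPCAM, CDH1, KRT8, KRT18 and KRT19 and ERBB2 were expressed in every library, ERBB2 at 8443 to 10410 CPM, scaled from here on with edgeR's TMM factors. Of the gastric genes, MUC5AC lay at 2.70 to 7.74 CPM and MUC6 at 0.528 to 1.46, with overlapping groups, and TFF1 and GKN1 stayed below 1 CPM. Of 4 fibroblast markers, COL1A1 had 4.77, 4.79 and 5.15 CPM in controls and 3.694, 4.386 and 3.996 CPM with EGLN3, without overlap, COL1A2 was at 0 in all 6 libraries, and DCN and PDGFRB lay at 0 to 0.255. Of 3 endothelial markers, VWF had 0.753 to 1.16 CPM in controls and 0.474 to 0.749 with EGLN3, also without overlap, and PECAM1 and CDH5 lay at 0 to 0.0628. COL1A1 and VWF were not called (edgeR adjusted p = 1), and their part in the results was not tested. Of 5 leukocyte markers, whose cells are rich in immunoproteasome, PTPRC, CD3E, CD68 and MS4A1 lay at 0 to 0.437 CPM, and CD14 at 1.72 to 3.89 CPM. The summed level of the 5 was 2.36 to 2.97 CPM in controls and 1.78 to 3.96 CPM with EGLN3. In bulk RNA, fewer cells with a transcript and less of it per cell cannot be told apart.

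Promoter sequences are shown first, because sets of proteasome genes that rise together carry known elements there. RefSeq windows on GRCh38.p14, from 250 bases before to 50 bases from each gene's start, were at hand for 42 of the 48 genes. Both strands were searched for the interferon-stimulated response element core TTTCNNTTTC, for the antioxidant response element core TGACNNNGC bound by NRF1 and NRF2, and for CCAAT, without regard to overlap between motifs. The interferon core was found in 6 of the 42 windows (14.3%), beside 3.65% of 27305 promoters of all genes. It occurred in PSMB10, PSME1, PSME2, PSMA4, PSMB4 and PSMG4. The first 3 of these encode interferon-inducible subunits. The windows of PSMB8 and PSMB9, which are interferon-inducible too, had no match. The 6 elements are printed with their flanking bases, each 30 bases long, 5′ to 3′ on the gene's strand, with the core in capitals.
PSMB10: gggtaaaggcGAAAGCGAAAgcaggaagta
PSME1: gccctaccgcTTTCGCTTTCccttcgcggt
PSME2: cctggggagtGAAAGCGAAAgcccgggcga
PSMG4: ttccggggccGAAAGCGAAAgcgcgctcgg
PSMB4: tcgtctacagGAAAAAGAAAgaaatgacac
PSMA4: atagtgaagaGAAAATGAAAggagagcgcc
They lie at chr16:67936852-67936881 (minus strand), chr14:24136189-24136218 (plus), chr14:24146619-24146648 (minus), chr6:3258904-3258933 (plus), chr1:151399495-151399524 (plus) and chr15:78540155-78540184 (plus). The core of PSMB10, PSME2 and PSMG4 had the same letters, GAAAGCGAAA, which is TTTCGCTTTC of PSME1 on the opposite strand. The core began 21 bases before the start of PSMB10, 28 before that of PSME2 and 33 before that of PSMG4. In PSME1 it began 5 bases after the start.

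The antioxidant core was found in 13 of the 42 windows (31.0%), beside 13.6% of all promoters, and CCAAT in 19 (45.2%), beside 35.7%. The antioxidant core was in 3 of 4 activator windows and in 0 of 7 alpha subunit windows. A match is a run of letters and not a shown binding site. The stretches upstream of PSMB3, PSMG2 and PSMB9 are printed because these genes recur below. PSMB3 had the highest level of all, PSMG2 was the gene that passed in the corrected fit, and PSMB9 shares its upstream region with TAP1. Any link between the sequences and those results was not tested. Capitals mark the antioxidant core on either strand.
PSMB3: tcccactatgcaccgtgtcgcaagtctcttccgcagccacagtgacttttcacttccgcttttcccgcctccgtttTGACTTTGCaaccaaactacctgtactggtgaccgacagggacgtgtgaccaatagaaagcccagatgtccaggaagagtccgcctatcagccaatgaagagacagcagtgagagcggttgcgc
PSMG2: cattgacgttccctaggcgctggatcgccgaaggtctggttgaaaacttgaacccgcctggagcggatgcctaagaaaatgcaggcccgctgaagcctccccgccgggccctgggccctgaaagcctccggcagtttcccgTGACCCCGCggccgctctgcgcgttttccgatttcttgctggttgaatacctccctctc
PSMB9: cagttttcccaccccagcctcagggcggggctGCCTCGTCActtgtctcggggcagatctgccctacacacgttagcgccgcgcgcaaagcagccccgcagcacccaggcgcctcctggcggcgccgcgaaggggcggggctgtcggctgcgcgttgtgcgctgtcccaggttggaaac
They lie at chr17:38752561-38752760, chr18:12658558-12658757 and chr6:32854012-32854190, each on the plus strand. The RefSeq starts of PSMB9 and TAP1 lie 487 bases apart and point away from each other. TAP1 encodes a chain of the peptide transporter that carries proteasome products to class I molecules.

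Levels per length differed widely between proteasome genes of a complex that uses its subunits in fixed numbers. Over all 6 libraries and per kilobase of annotated exons, the median of the 46 genes was 27.5 CPM per kilobase, beside 5.35 for tested protein-coding genes. PSMB3, a non-catalytic beta subunit, was highest at 707.8 CPM per kilobase, and its lowest library (462) lay above the highest library of the next gene, PSMA7 (254). PSMA7 (mean 189 CPM per kilobase), the catalytic PSMB7 (130), PSMD3 of the cap's lid (123) and PSMD2 of its base (120) followed, and the ranges of each pair of neighbours in this order overlapped. PSMB3 remained first when the longest protein-coding transcript was taken as the length (1080 CPM per kilobase). PSMB3 (chromosome 17, 38752736 to 38764231 in GRCh38) lies 0.92 Mb from ERBB2, the gene amplified in this line, and PSMD3 (39980797 to 39997960) lies 0.25 Mb from it. Copy number was not analysed here, and its part in these levels was not tested.

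**Figure D1:**
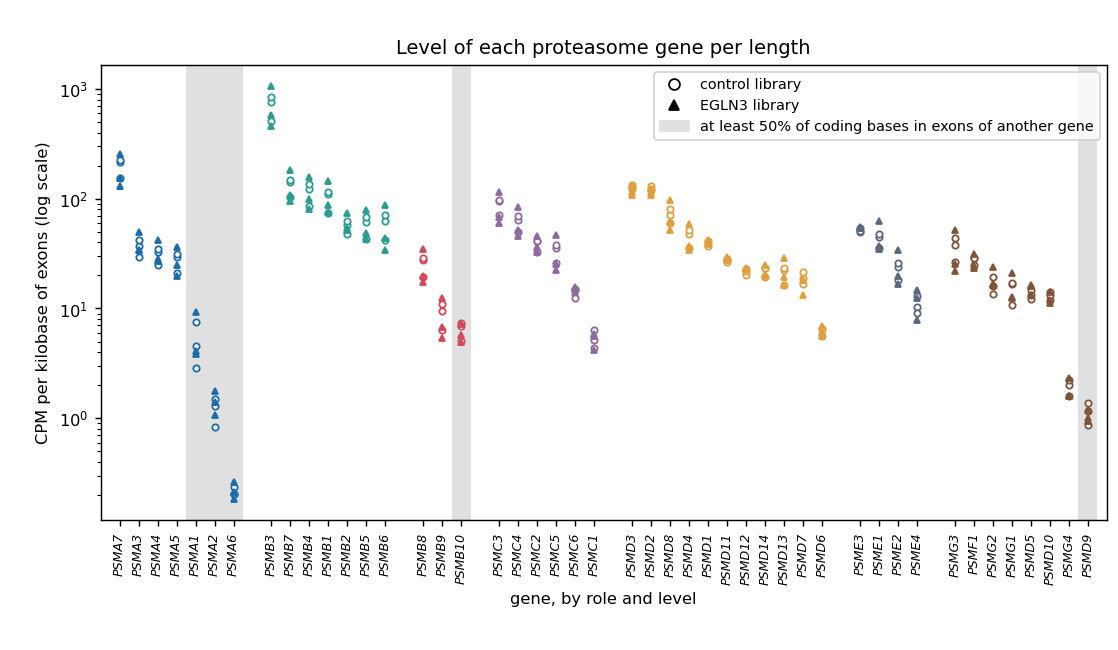
Level of 46 proteasome genes in each library, in CPM per kilobase of exons on a log scale; circles are control libraries, triangles EGLN3 libraries, and grey bands mark genes with at least 50% of coding bases in exons of another gene. PSMB3 stands above all others, and the 5 genes in grey bands are the lowest of their roles.

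Genes with overlapping models had low levels. In GENCODE release 29, at least 50% of the coding bases of 5 proteasome genes also belong to exons of another gene on the same strand: PSMA2 (97.1%), PSMA1 (88.6%), PSMA6 (70.4%), PSMD9 (58.7%) and PSMB10 (58.3%). The 5 had a mean level of 1.41 to 17.7 CPM, beside 19.6 to 835 CPM in the 39 genes with under 25% shared. Per length the ranges overlapped, at 0.217 to 6.20 (median 1.31) beside 1.89 to 707.8 CPM per kilobase (median 34.6). By the longest protein-coding transcript they were 1.37 to 11.6 and 4.27 to 1080. PSMA6, an alpha ring subunit, was the lowest tested gene at 0.217 CPM per kilobase. It had 1.34, 1.53 and 1.32 CPM in controls and 1.39, 1.72 and 1.19 CPM with EGLN3, and the groups overlapped. The overlapping same-strand models had few counts of their own. AC018523.2 on PSMA1 had 0 counts in every library, AC010132.3 on PSMA2 had 0 to 1, and AL121594.1 on PSMA6 had 0 to 5. AC040162.1 on PSMB10 had 27 to 52. PSMD9, with 131 to 194 counts, overlaps AC069503.2, which had 0 to 3, and WDR66, which had 57 to 74. How reads in shared exons were assigned, and whether strand was used, was not stated in any source used here, so the levels of these 5 are uncertain. Counted on either strand, sharing of at least 50% was found in 10.4% of the 48 genes and in 4.96% of tested protein-coding genes. For the same strand alone, the share over tested protein-coding genes is not given here. PSMC1, a cap ATPase, shared 47.7% of its coding bases with NRDE2 on the opposite strand, and PSMD7, of the cap lid, shared 28.4% with AC009120.2 on the opposite strand.

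Among genes with little sharing, levels followed role in part. The median was 101.5 CPM per kilobase over the 7 beta subunits, 34.6 over 4 alpha subunits, 38.4 over 5 cap ATPases, 33.8 over 10 other cap subunits, 33.4 over the 4 activators and 15.1 over 7 regulator and assembly genes. PSMB8 (24.6) and PSMB9 (8.56), the interferon-inducible subunits with little sharing, lay below every tested beta subunit they can replace.

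With the EGLN3 vector, 0 of the 46 proteasome genes passed the test, in either direction. The call was an adjusted p under 0.05 over all 15726 tested genes in edgeR's quasi-likelihood test, by which 0.00636% of all tested genes were called, EGLN3 alone. None of the 46 had an unadjusted p under 0.05, and DESeq2 and limma-voom also called 0 with 0 at an unadjusted p under 0.05. The median log2 fold change of the 46 was -0.01, beside 0.01 over all tested genes. It ran from -0.21 to 0.21, with 21 genes above 0 and 25 below. No proteasome gene had control and EGLN3 libraries that did not overlap in CPM, whereas separated groups were seen with EGLN3 higher in 2.64% and with EGLN3 lower in 3.62% of all tested genes. The SE ran from 0.11 to 0.47 (median 0.25), and a call needed a difference of several SE. Outside the proteasome genes, MAFK at a log2 fold change of -0.41 with SE 0.14 was not called. Differences well above the SE could therefore be missed. The sign of the median rested on single libraries: it was -0.21 without EGLN3 replicate 1, with 4 of 46 genes (8.70%) at an unadjusted p under 0.05 beside 8.74% of all tested genes, and 0.11 without EGLN3 replicate 3. The 46 genes together summed to 6216 to 7947 CPM in controls and 5979 to 9046 CPM with EGLN3.

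**Figure D2:**
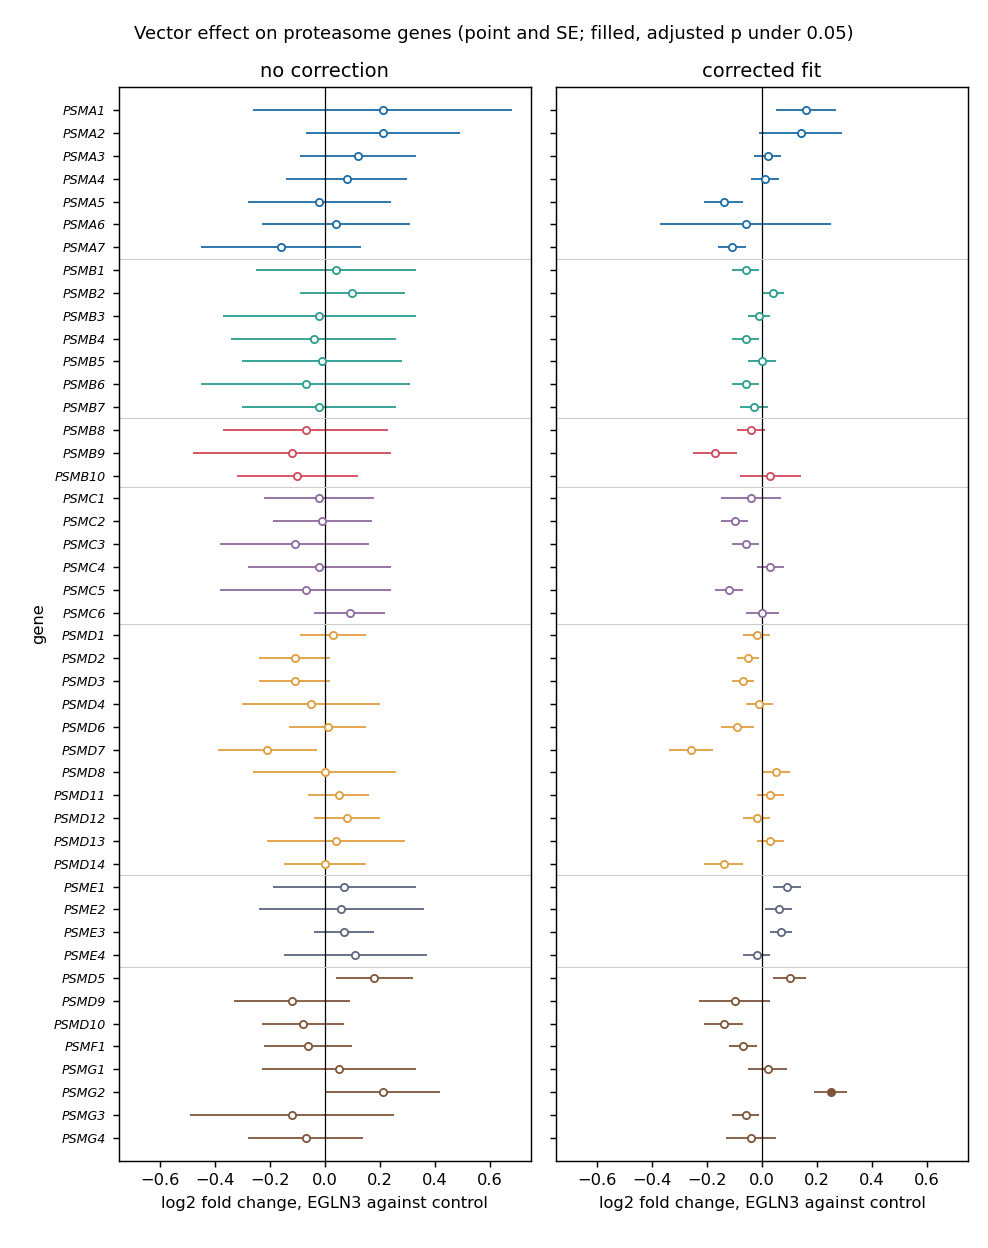
Log2 fold change of 46 proteasome genes, EGLN3 against control (3 libraries each), as point and SE, without correction (left) and in the corrected fit (right); filled points have an adjusted p under 0.05. No point is filled on the left, and PSMG2 is the filled point on the right.

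The alpha subunits, which form the outer rings, had a median log2 fold change of 0.08, from -0.16 for PSMA7 to 0.21 for PSMA1 and PSMA2. PSMA7 had 270.3, 381.3 and 397.6 CPM in controls and 444.5, 268.5 and 226.8 CPM with EGLN3. Its highest and its lowest library were both EGLN3 libraries. PSMA3, PSMA4 and PSMA5 had differences of 0.12, 0.08 and -0.02 (SE 0.21, 0.22 and 0.26). PSMA2, whose level is uncertain as said, had 4.48, 6.90 and 8.03 CPM in controls and 9.37, 5.69 and 7.43 CPM with EGLN3, a log2 fold change of 0.21 (SE 0.28; edgeR adjusted p = 1).

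The 7 tested constitutive beta subunits had a median difference of -0.02, from -0.07 to 0.10. PSMB5, which cuts after hydrophobic residues, had 75.6, 108.4 and 120.3 CPM in controls and 140.1, 85.8 and 75.4 CPM with EGLN3. PSMB6, which cuts after acidic residues, had 60.4, 89.9 and 102.6 CPM in controls and 127.6, 64.1 and 49.7 CPM with EGLN3. PSMB7, which cuts after basic residues, had 184.3, 252.1 and 266.3 CPM in controls and 327.7, 195.0 and 172.2 CPM with EGLN3. Each of the 3 showed the same order, with EGLN3 replicate 1 highest, EGLN3 replicate 3 lowest and the controls between, so the groups overlapped. Their log2 fold changes were -0.01, -0.07 and -0.02, with SE of 0.29, 0.38 and 0.28. PSMB3 had 608.2, 903.0 and 1007 CPM in controls and 1265, 679.2 and 544.5 CPM with EGLN3, again with the EGLN3 libraries at both ends (log2 fold change -0.02, SE 0.35).

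The 3 immunoproteasome genes lay slightly below 0, with log2 fold changes of -0.07 (PSMB8, SE 0.30), -0.12 (PSMB9, SE 0.36) and -0.10 (PSMB10, SE 0.22). PSMB8 had 58.2, 82.04 and 86.4 CPM in controls and 103.5, 59.7 and 52.6 CPM with EGLN3. PSMB9 had 19.4, 29.1 and 33.6 CPM in controls and 38.5, 20.8 and 16.4 CPM with EGLN3. PSMB10 had 9.31, 13.6 and 12.7 CPM in controls and 13.5, 10.6 and 9.24 CPM with EGLN3. In all 3 the groups overlapped, and EGLN3 replicate 3 was the lowest library.

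Because inducible subunits displace constitutive ones, their ratio was compared too. The mean log2 CPM of PSMB8, PSMB9 and PSMB10 minus that of PSMB5, PSMB6 and PSMB7 was -2.10, -2.08 and -2.15 in controls and -2.25, -2.11 and -2.10 with EGLN3. The difference between group means was -0.05 (SD 0.04 in controls and 0.08 with EGLN3, n = 3 each; exact permutation test, two-sided, p = 0.5, where 0.1 is the smallest p that 3 against 3 libraries allow). Taken as summed CPM per kilobase, the log2 ratio also differed by -0.05, without overlap between the groups, at that smallest p of 0.1 (exact permutation test). Per kilobase of exons, and with PSMB10 and its uncertain level included, the inducible subunits made up 13.4% to 14.3% of the 6 catalytic genes in every library. This share moved far less than the genes themselves, whose highest library was 1.47 to 2.57 times the lowest. By pair, PSMB8 was 0.410 to 0.453 of PSMB5 per kilobase, PSMB9 was 0.142 to 0.156 of PSMB6, and PSMB10, with its uncertain level, was 0.0398 to 0.0522 of PSMB7. The size of the share and of these ratios depends on the length used. By exons PSMB9 and PSMB6 had means of 8.56 and 56.9 CPM per kilobase. By the longest protein-coding transcript they had 33.2 and 94.6. By vector the log2 ratios of the 3 pairs differed by -0.07, -0.03 and -0.04 (exact permutation tests, adjusted p = 0.6, 0.9 and 0.9 over the 3). With 0.1 as the smallest p, these tests could not have called any pair.

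**Figure D3:**
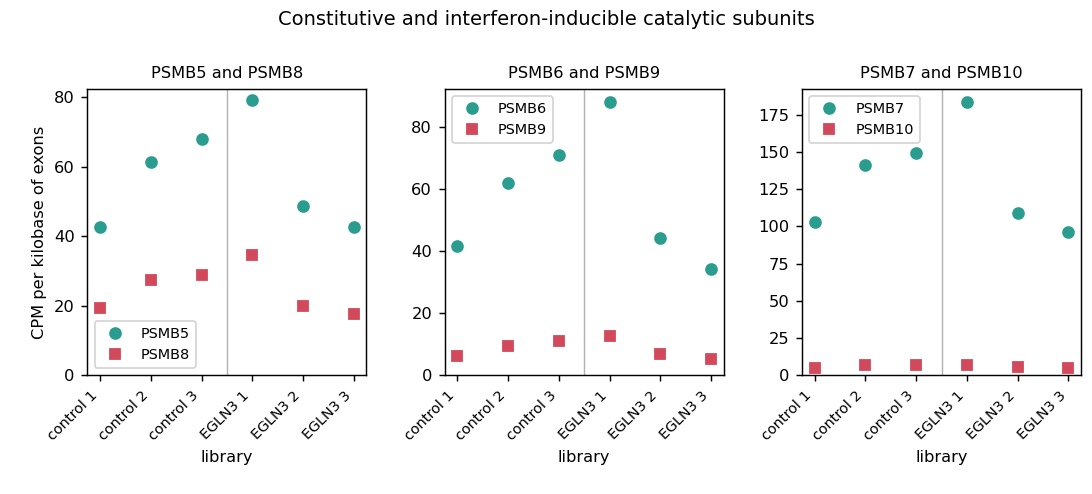
Level per library, in CPM per kilobase of exons, of each constitutive catalytic subunit (circles) and the interferon-inducible subunit that replaces it (squares), with controls left and EGLN3 libraries right of the line. Both members of a pair are highest or near their highest in EGLN3 replicate 1, and the inducible one lies below its partner in all 6 libraries.

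The 6 cap ATPases, which form the unfolding ring, had a median difference of -0.02, from -0.11 for PSMC3 to 0.09 for PSMC6. PSMC3 had 162.2, 215.6 and 220.5 CPM in controls and 261.3, 154.2 and 138.1 CPM with EGLN3. PSMC6 varied least of the 6, with its highest library 1.27 times its lowest. PSMC1 had 31.7, 38.8 and 26.8 CPM in controls and 25.5, 36.3 and 34.4 CPM with EGLN3. Unlike the other 5 ATPase genes, it was lowest in EGLN3 replicate 1, and 75.8% of its exonic bases are shared with NRDE2.

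The 11 other cap subunits had a median difference of 0.00, from -0.21 to 0.08. PSMD7, the partner of the deubiquitinase PSMD14 in the lid, had the most negative value of all 46 genes. It had 51.7, 59.5 and 45.7 CPM in controls and 36.5, 49.3 and 49.4 CPM with EGLN3. EGLN3 replicate 1 was its lowest library and the groups overlapped (log2 fold change -0.21, SE 0.18; edgeR adjusted p = 1). PSMD2, a substrate-binding scaffold of the base, and PSMD3 of the lid came next in p among lower genes. PSMD2 had 652.4, 710.6 and 665.3 CPM in controls and 673.8, 621.9 and 586.7 CPM with EGLN3. PSMD3 had 603.0, 662.5 and 634.6 CPM in controls and 643.2, 576.5 and 538.5 CPM with EGLN3. The log2 fold change was -0.11 (SE 0.13) for both, and in each EGLN3 replicate 1 lay within the control range. PSMD14 itself had a difference of 0.00 (SE 0.15), and the ubiquitin receptor PSMD4 one of -0.05 (SE 0.25). PSMD11, whose level is known to limit cap assembly in stem cells, varied little, with its highest library 1.11 times its lowest.

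The 4 activator genes all had positive differences, from 0.06 to 0.11, each within its SE. PSME1 had 63.2, 80.1 and 84.9 CPM in controls and 110.8, 66.6 and 61.4 CPM with EGLN3. PSME2, its partner in PA28, had 64.6, 85.1 and 93.2 CPM in controls and 123.3, 71.1 and 59.3 CPM with EGLN3. The pair, which are neighbours on chromosome 14 with 4394 bases between them, followed the same order of libraries. PSME3, the nuclear PA28 gamma, had 277.4, 257.6 and 263.2 CPM in controls and 276.3, 282.2 and 279.5 CPM with EGLN3. It was the steadiest proteasome gene, with its highest library 1.10 times its lowest (log2 fold change 0.07, SE 0.11). PSME4, the large single-chain activator PA200, had 134.3, 106.0 and 93.8 CPM in controls and 81.1, 128.0 and 150.4 CPM with EGLN3. It ran opposite to PSME1 and PSME2 across libraries, and its groups overlapped.

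Among the regulator and assembly genes, PSMD5 had the smallest p of the genes above 0. This base assembly chaperone had 65.3, 54.6 and 58.3 CPM in controls and 59.4, 70.7 and 72.4 CPM with EGLN3 (log2 fold change 0.18, SE 0.14; edgeR unadjusted p = 0.24, adjusted p = 1). PSMG2, which pairs with PSMG1 in assembling the alpha ring, had 45.4, 53.8 and 65.4 CPM in controls and 80.1, 56.0 and 54.6 CPM with EGLN3 (log2 fold change 0.21, SE 0.21). PSMF1, the proteasome inhibitor PI31, had 130.9, 153.3 and 153.2 CPM in controls and 166.1, 129.9 and 124.8 CPM with EGLN3. The groups overlapped in all 3. PSMG1, PSMG3 and PSMG4 had differences of 0.05, -0.12 and -0.07.

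Most proteasome genes rose and fell together from library to library, along an axis that the vector did not define. The axis was the first principal component of log2 CPM (prior count of 2) over all tested genes except the proteasome genes, and it held 70.0% of the variance. In replicate order, the controls scored -36.1, 11.5 and 34.4 and the EGLN3 libraries 59.3, -23.3 and -45.8, so each group spanned both signs. The slope of a gene on the axis, in log2 CPM per SD of score, was above 0 for 40 of 46 proteasome genes, with a median of 0.26, beside 50% and a median of 0.00 for all tested genes. All 7 tested alpha, all 7 tested beta and all 3 immunoproteasome genes were above 0, as were 5 of 6 cap ATPases, 9 of 11 other cap subunits, 2 of 4 activators and 7 of 8 regulator and assembly genes. The largest slopes belonged to PSMA1 (0.58), PSMB6 (0.51), PSMG3 (0.49), PSMB9 (0.48) and PSMB3 (0.47). The 6 genes below 0 were PSME4 (-0.34), PSMC1 (-0.16), PSMD7 (-0.14), PSMD5 (-0.13), PSMD1 (-0.03) and PSME3 (-0.03). Leaving out any 1 library left 39 or 40 of 46 above 0.

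**Figure D4:**
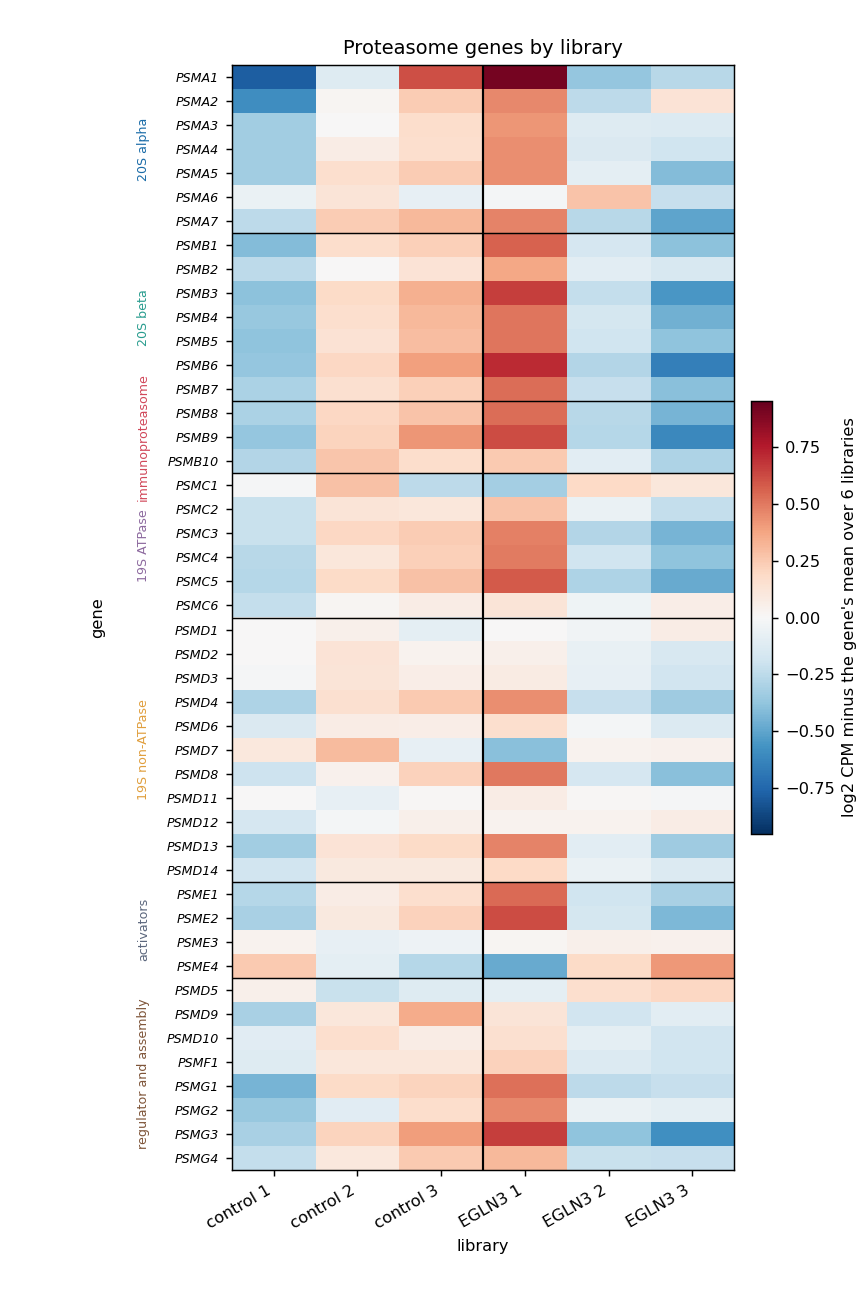
Log2 CPM of 46 proteasome genes minus each gene's mean over the 6 libraries (colour), by library (columns) and role (rows between lines). Most core and ATPase genes are high in EGLN3 replicate 1 and control replicate 3 and low in control replicate 1 and EGLN3 replicate 3.

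Counted by library, 40 of the 46 genes lay above their own mean in EGLN3 replicate 1, 39 in control replicate 3 and 37 in control replicate 2. In control replicate 1, EGLN3 replicate 2 and EGLN3 replicate 3 it was 5, 8 and 9. EGLN3 replicate 1 was the highest library of 33 genes and EGLN3 replicate 3 the lowest of 25. The median deviation of the 46 genes was -0.26, 0.12 and 0.17 in the controls and 0.44, -0.14 and -0.22 with EGLN3, on the log2 scale. PSMB6 was 2.57 times as high in EGLN3 replicate 1 as in EGLN3 replicate 3, PSMB9 2.35 times and PSMB3 2.32 times. PSME4 was at 0.539 of its level there. For PSMB6, PSMB9 and PSMB3 the spread within the EGLN3 group exceeded the difference between the groups. EGLN3 RNA itself went the other way within its group, at 481.4, 1640 and 1717 CPM in EGLN3 replicates 1 to 3.

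Transcript length moved with the axis. All 18 proteasome genes whose longest protein-coding transcript was under 1500 bases had a slope above 0, beside 92.7% of all tested protein-coding genes of that length, and both had a median slope of 0.37. From 1500 to under 3000 bases it was 13 of 14, beside 76.7%, with medians of 0.28 and 0.15. At 3000 bases or more it was 9 of 14, beside 26.2%, with medians of 0.05 and -0.15. Proteasome genes are short, with a median of 1586 bases beside 3385 bases for tested protein-coding genes. Across the 46 genes, the rank correlation of slope with transcript length was -0.65, and across 12760 protein-coding genes it was -0.68. With GC content it was 0.41 and 0.43. These are correlations across genes of the same 6 libraries, and genes are not independent replicates. Each library's trends on GC content and on gene length, taken as all annotated exons, were also removed. Then 42 of 46 slopes were above 0, with a median of 0.25, beside 54.5% and 0.02 for all tested genes. Across the 12760 genes, slope followed that gene length less closely, with a rank correlation of -0.58 beside -0.68 for transcript length. Trends on transcript length itself were not removed, so these slopes may still carry them. The part of RNA quality in this axis was not tested.

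**Figure D5:**
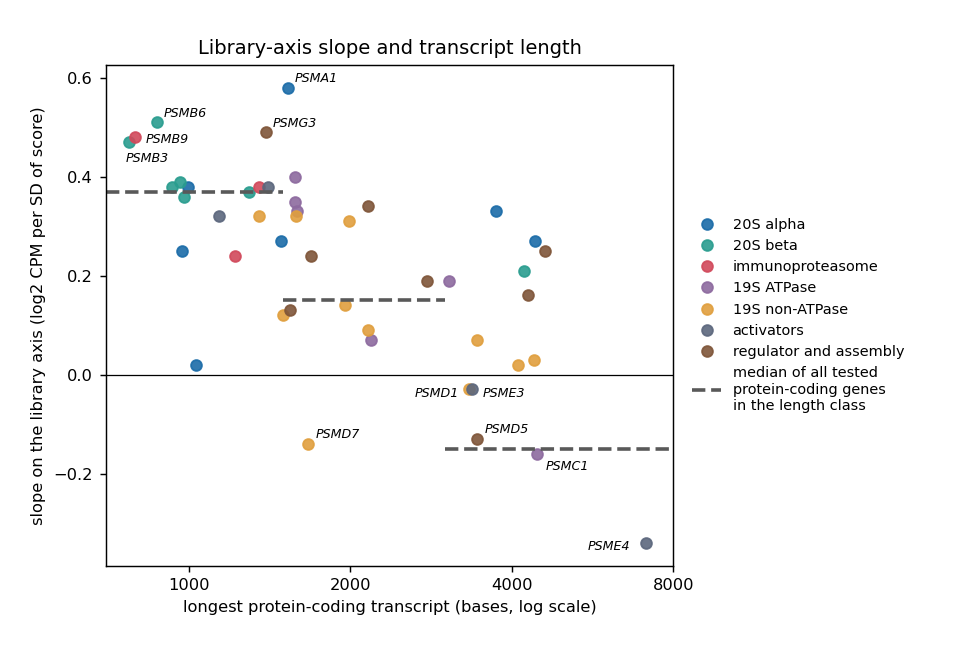
Slope of 46 proteasome genes on the library axis (log2 CPM per SD of score) against the length of the longest protein-coding transcript (log scale), coloured by role; dashed lines are medians of all tested protein-coding genes of each length class. All 18 genes under 1500 bases lie above 0, and PSME4, the longest, lies at -0.34.

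TAP1 and PSMB9, which start 487 bases apart, went opposite ways along the axis. TAP1 had 99.7, 99.5 and 75.5 CPM in controls and 59.6, 84.1 and 84.5 CPM with EGLN3, with a slope of -0.20 beside 0.48 for PSMB9. TAP2 had a slope of 0.07. Of the genes that control interferon-inducible subunits, NLRC5 had a slope of -0.21 and IRF1 one of 0.28. NFE2L1, which drives proteasome genes, had 236.9, 203.2 and 154.2 CPM in controls and 128.9, 204.6 and 217.0 CPM with EGLN3, a slope of -0.31. It was lowest in the library where most proteasome genes were highest.

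A corrected fit was made to look for vector differences beneath this axis. It added 1 surrogate variable, a covariate estimated from the counts with svaseq, and removed each library's trends on gene length and GC content. The spread that edgeR estimated between replicates (common dispersion) went from 0.0589 to 0.0022. Of all tested genes 0.986% were called, and 0.318% were called with EGLN3 higher. Of the 46 proteasome genes, 1 was called, PSMG2, higher with EGLN3. The median of the 46 was -0.03, beside 0.00, and 5 of them (10.9%) had an unadjusted p under 0.05, beside 13.1% of all tested genes. The surrogate variable was estimated from the same counts, which these p-values do not take into account.

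In the corrected fit PSMG2 was at a log2 fold change of 0.25 (SE 0.06; edgeR adjusted p = 0.03), and 0.24 with the surrogate variable alone (adjusted p = 0.027). In the corrected values its 3 EGLN3 libraries lay above the 3 controls, as did those of PSMB2, PSMD5 and PSME3, which were not called. For PSMA7, PSMB9, PSMD3, PSMD7, PSMD10 and PSMF1 they lay below. The corrected values use the same surrogate variable and trends as the fit, so this separation adds no support to the PSMG2 call. The call held without control replicate 3 (adjusted p = 0.023) and was lost without any other library. Without EGLN3 replicates 1, 2 and 3 the adjusted p was 0.23, 0.063 and 0.4, and without control replicates 1 and 2 it was 0.081 and 0.077, with log2 fold changes between 0.20 and 0.29 over the 6 fits. PSMG2 (ENSG00000128789, chromosome 18, 12658043 to 12725740, plus strand) shares 468 exonic bases with CEP76 and 92 with SPIRE1, both on the opposite strand. Part of its reads could therefore belong to those genes. CEP76 had 192 to 262 counts and SPIRE1 135 to 489. PSMD7 was next, at -0.26 (SE 0.08; edgeR unadjusted p = 0.0031, adjusted p = 0.12), and it was called when control replicate 1 was left out. PSMA7, PSMC5 and PSMB9 were at -0.11, -0.12 and -0.17, with adjusted p of 0.28, 0.29 and 0.34. The constitutive beta genes lay between -0.06 and 0.04, with SE of 0.04 to 0.05.

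Other genes of the pathway were read from lists. Of 15 proteasome partners outside the naming rule, 0 were called in either fit. They include POMP, the core maturation factor (log2 fold change 0.06, SE 0.30), and the ubiquitin receptor ADRM1 (-0.21, SE 0.27). Of 8 genes of transcriptional control, 0 were called without correction and 1, MAFK, was called lower in the corrected fit. NFE2L1 and NFE2L2 had differences of -0.11 (SE 0.25) and 0.15 (SE 0.14). MAFK, a small Maf protein that pairs with NRF1 and NRF2, had 82.5, 82.3 and 69.0 CPM in controls and 54.2, 63.9 and 58.0 CPM with EGLN3. The groups did not overlap (log2 fold change -0.41, SE 0.14; edgeR unadjusted p = 0.023, adjusted p = 1; corrected -0.26, adjusted p = 0.017). Without EGLN3 replicates 1 and 3 the corrected call was lost, with adjusted p of 0.23 and 0.31.

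Of 15 genes for ubiquitin supply and delivery, 0 were called without correction and 1, UBB, was called lower in the corrected fit. UBB, one of the polyubiquitin genes, had 99.6, 124.8 and 105.8 CPM in controls and 93.4, 89.2 and 81.6 CPM with EGLN3, without overlap (log2 fold change -0.32, SE 0.14, edgeR adjusted p = 1; corrected -0.29, adjusted p = 0.013). Its corrected call was lost without EGLN3 replicates 1 and 3 (adjusted p = 0.32 and 0.1). Of its coding bases 56.2% are shared with a gene on the opposite strand, so its level is uncertain.

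Of 9 genes of interferon control and antigen processing, 0 were called without correction and 1, ERAP2, was called higher in the corrected fit. ERAP2, which trims peptides for class I molecules, had 55.4, 44.2 and 39.5 CPM in controls and 41.0, 65.4 and 76.3 CPM with EGLN3, and the groups overlapped (log2 fold change 0.39, SE 0.26; corrected 0.26, adjusted p = 0.018). Its corrected call was lost without EGLN3 replicate 1, 2 or 3 or control replicate 1 (adjusted p = 0.094, 0.088, 0.2 and 0.11). IRF1, NLRC5, TAP1 and TAP2 had differences of 0.02, 0.08, -0.27 and 0.13, with SE of 0.25, 0.18, 0.20 and 0.13. The levels of TAP2 and IRF1 are uncertain too, with 90.6% of coding bases shared on the same strand and 59.5% on the opposite strand. ADRM1, among the partners, shared 29.6% on the opposite strand. Of 9 genes of the COP9 signalosome, a relative of the cap lid, and 8 of the chaperonin, another large ring complex, 0 were called in either fit. The 8 chaperonin genes all had differences below 0, from -0.14 to -0.01, and 5 of them had an unadjusted p under 0.05 in the corrected fit. Over the 6 lists, MAFK was the 1 gene with an unadjusted p under 0.05 without correction. Control and EGLN3 libraries did not overlap in CPM, with EGLN3 higher, in AKIRIN2 and ZFAND5 of the partners and COPS2 of the signalosome. With EGLN3 lower they did not overlap in MAFK and UBB. Among all tested genes, groups were separated with EGLN3 higher in 2.64% and lower in 3.62%. On the library axis, where 50% of all tested genes had slopes above 0, it was 9 of 15 partners, 3 of 8 genes of transcriptional control, 9 of 15 of ubiquitin supply, 4 of 9 of interferon control, 8 of 9 of the signalosome and 7 of 8 of the chaperonin. The median slopes were 0.15, -0.05, 0.01, -0.20, 0.16 and 0.07, in that order.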

How the data were processed

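RNA-seq reads from 6 libraries were made into gene counts and FPKM by the authors. Per the submitters' processing notes, the build was hg38 and the tools named are DESeq2 1.20.0, featureCounts 1.5.0-p3 and HISAT2 2.0.5. The deposited counts per gene are raw read counts, and the deposited FPKM divides them by depth and gene length. For strand use and reads in shared exons, the setting is not given in the sources at hand. All 58735 deposited gene lengths equal the exon union of GENCODE release 29, which was used for overlaps, coordinates and transcript lengths. The total count per library was 15157265 to 16767383.

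Counts were tested with edgeR 4.0.16 (R 4.3.3): filterByExpr, TMM scaling and the quasi-likelihood test of EGLN3 against control, with Benjamini-Hochberg adjustment over 15726 genes and a threshold of 0.05. No covariate was used. The corrected fit added 1 surrogate variable (svaseq, sva 3.50.0) and each library's spline trends (5 degrees of freedom) on gene length (exon union) and GC content. Principal components used log2 CPM with a prior count of 2. Alternatives were DESeq2 1.42.0, limma-voom and limma 3.58.1 on log2(FPKM + 1) or log2(FPKM + 0.1) with a minimum FPKM of 0.5 or none, other filters and factors, a replicate block and leaving out each library. The count scripts were tested on simulated data.

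The genes and lists were chosen with earlier results of these data known. Named by rule were EGLN3, PSMB5 to PSMB10, the PSME genes, PSMF1, the 3 proteasome genes with the smallest p in each direction, those called in the corrected fit, the highest and lowest per length, the genes NFE2L1, NFE2L2, POMP, ADRM1, IRF1, NLRC5, TAP1 and TAP2, and listed genes that were called. Other named genes were chosen after their values were seen. Single values of some listed genes are not reported here.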

Additional observations from a re-analysis of the deposited data

How the results depend on the processing

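With the surrogate variable alone 1 proteasome gene was called, and in the corrected fit 1, PSMG2 in both; the other alternatives called 0. Over all genes, where 1 was called, the count was 749 with the surrogate variable alone, 155 in the corrected fit, 0 with limma-voom, 0 with limma on log2(FPKM + 1) with or without a minimum, and 0 to 1 when each library was left out. The corrected fit called 0 to 1 proteasome genes when each library was left out, and 49 to 218 genes in all. With the surrogate variable alone 1 proteasome partner, 1 gene of transcriptional control, 1 of ubiquitin supply, 2 of interferon control and 1 of the COP9 signalosome were called. In the corrected fit it was 1 each of transcriptional control, ubiquitin supply and interferon control. The cause was not tested. The median of the proteasome genes ranged from -0.21 to 0.11 when each library was left out, and the count with a positive slope from 39 to 40. Of 2 alternatives chosen after seeing the data, removing the trends gave 42, and leaving out genes with overlapping coding bases gave 35 of 39.

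Deviations of same-numbered libraries had correlations of -0.79, -0.18 and -0.67. These deviations include the library axis, so they cannot show whether same-numbered libraries were handled together, which the labels do not state. With the replicate number as a block, 0 proteasome genes and 0 genes in all were called, 23 genes had an unadjusted p under 0.05, and the median of the proteasome genes was -0.03. No library correlated best with its own number. Having 3 libraries per group and the shared axis limit what could be called.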
